A study of Mus musculus with 115 samples.

Results

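The genes described here encode the glutathione transferases and the UDP-glucuronosyltransferases of mouse liver and inguinal adipose tissue. They were chosen by name alone: every gene with a probe on the array whose symbol begins with Gsta, Gstk, Gstm, Gsto, Gstp, Gstt, Gstz, Mgst, Ugt1, Ugt2 or Ugt3, followed by a number or letter. The rule took 31 of 18120 gene symbols, with 45 of 25697 probes. A probe was tested in a tissue when its detection p-value was under 0.01 on 5 or more liver arrays, or on 3 or more adipose arrays, the size of the smallest group there. In liver 39 of the 45 probes (28 symbols) were tested, among 11317 probes in all. In adipose tissue 34 probes (23 symbols) were tested, among 14636. The 6 probes left out in liver were both probes of Gsto2, 1 of Ugt1a2, and those of Ugt2a1, Ugt2a2 and 1 of Ugt2a3. The 11 left out in adipose tissue were those of Gsta1, Gsta2, Gstm3, Ugt2a1, Ugt2a2 and Ugt2b5, both probes of Ugt1a2, both of Ugt2a3, and 1 of Gstp1 (ILMN_2793329).

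Glutathione transferases join the tripeptide glutathione to reactive electrophiles, and UDP-glucuronosyltransferases join glucuronic acid to bilirubin, steroids, phenols and drugs; both make the product more soluble so that it can be exported. The soluble transferases fall into classes named by Greek letters (alpha, kappa, mu, omega, pi, theta, zeta), and the Mgst proteins are a separate family set in membranes. The liver is the main organ of both reactions, and several of these enzymes, the pi class among them, are known to differ between male and female mice.

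The mice were of a cross on a C57BL/6J background that separates gonad type from sex chromosomes. In it Sry, the gene that starts testis development, is deleted from the Y chromosome (allele Srydl1Rlb), while some mice carry a copy of it on an autosome (the transgene TgSry2Ei). XX and XY- mice lack Sry and develop ovaries; XXSry and XY-Sry mice carry it and develop testes. All mice were gonadectomised at 75 days of age and received a capsule at once that was blank or held 5 mM testosterone or 50 µg estradiol; tissue was taken 3 weeks later. No group therefore had gonads when sampled, and the type of gonad a mouse had carried cannot be told apart from the presence of the Sry transgene itself. Each of the 12 groups had 5 liver arrays (60 in all) and 3 to 5 adipose arrays (55 in all), spread over 8 slides per tissue. Capsules were not balanced over the slides, which are numbered here within a tissue. In liver slides 6 and 7 held no blank arrays and slide 8 held estradiol arrays alone. In adipose tissue slides 5, 6 and 7 held no blank arrays and slide 8 held blank arrays alone. Capsule and slide are thus partly confounded. The labels do not say whether the arrays of a group came from separate mice, so p-values measure the spread between arrays. Replicate numbers were given here in accession order and only name an array.

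Levels are log2 intensities after background correction and quantile normalisation within a tissue. They are compared between arrays for 1 probe, never between probes or between tissues. The testosterone and estradiol differences are each against blank and averaged over the 4 genotypes; they share the blank arrays. The gonad difference is with Sry minus without, averaged over treatments. Called means that limma gave a probe an adjusted p under 0.05, after Benjamini-Hochberg adjustment over all probes tested in the tissue. Shares of all probes belong to this fit on all arrays, unless another setting is named beside them. They move with the setting, so a count at another setting is not to be read against them. In tissue RNA, fewer cells of a type and less RNA per cell cannot be told apart.

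The median raw intensity of an array was 124 to 159 for liver and 130 to 230 for adipose tissue, and 31.8% to 41.0% and 40.3% to 49.0% of probes were detected. All 7 hepatocyte markers examined were detected on all liver arrays. Of the 7 adipocyte markers, Adipoq, Plin1, Fabp4, Cidec and Retn were detected on no liver array, and Lep and Lipe on some. On all adipose arrays 6 of 7 adipocyte markers were detected. So were 4 of 8 skeletal muscle markers and 1 of 8 lymph node markers. The summed muscle level there ran from 11.69 to 17.37 with Sry and from 9.93 to 17.31 without, on the log2 scale. Some arrays stood apart. In liver the array labelled XY-Sry T replicate 5 had Eif2s3y, a Y-linked gene, at 4.53, within the XX range of 4.32 to 4.96. The array labelled XY- E replicate 5 had Hsd3b5, an enzyme of male mouse liver, at 12.26, within the testosterone range of 11.15 to 12.95. XX E replicate 1 was the lowest estradiol array for 17 of the 39 liver members. In adipose tissue XY-Sry T replicate 1 had a mean hepatocyte marker level of 12.43, against 9.75 in the next array. It was the highest testosterone array for 20 of the 34 members. XY- B replicate 1 was the lowest blank array for 17, and shared its slide with XXSry B replicate 2 and no other adipose array. The labels of the array XX E replicate 1 disagree on its capsule, and it was kept as estradiol. Results that these arrays move are given with and without them.

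The response to testosterone in liver was led by the pi class. Testosterone raised all 4 pi-class probes, those of Gstp1 and Gstp2, by 0.98 to 3.00 on the log2 scale. It lowered both probes of the membrane enzyme Mgst3, the theta-class Gstt2 and Gstt3, all 3 probes of the mu-class Gstm2, and Ugt1a2 and Ugt1a10. Of the 39 members 20 were called (51.3%), against 19.1% of all probes tested. The members called were 9 higher and 11 lower, where the shares of all probes were 8.17% and 10.9%. They stand for 12 symbols, 8 of them glutathione transferases and 4 glucuronosyltransferases. The median absolute difference was 0.34 over the members and 0.14 over all probes. The 19 members not called differed by -0.35 to 0.34. Without both arrays that went against their labels 19 members were called, a count not to be read against the shares above.

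Gstp1, the main pi-class enzyme of mouse liver, was measured by 3 probes. With probe ILMN_2793329 the 20 testosterone arrays lay between 8.06 and 9.37 (median 8.72) and the 20 blank arrays between 5.07 and 7.06 (median 5.75). The arms did not overlap. The difference was 3.00 ± 0.19 (SE), or 7.99-fold, with adjusted p = 7.45e-19; the probe was detected on 16 of 20 blank arrays and on all 20 with testosterone. With probe ILMN_1223230 the testosterone arrays lay between 13.50 and 14.42 (median 14.04) and the blank arrays between 10.98 and 12.67 (median 11.76), again without overlap. That difference was 2.18 ± 0.14, or 4.52-fold (adjusted p = 4.00e-19). The third probe, ILMN_2677046, gave 14.22 to 14.92 (median 14.79) against 13.25 to 14.40 (median 13.77), and 19 of 20 testosterone arrays were above every blank array. Its difference was 0.98 ± 0.10, or 1.97-fold (adjusted p = 9.09e-12). The 3 probes thus share a direction, while the size differs. Blank arrays of ILMN_2793329 reached near the background, which limits its fold change.

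Gstp2, the neighbouring pi-class gene, had testosterone arrays between 6.65 and 9.90 (median 8.05) and blank arrays between 5.67 and 7.67 (median 7.04). The arms overlapped, with 14 of 20 testosterone arrays above every blank array. The difference was 1.32 ± 0.19, or 2.49-fold (adjusted p = 2.42e-07). On the 3 slides that held both capsules, the within-slide difference was 1.27 to 1.42 for Gstp2 and 2.80 to 3.40 for the first Gstp1 probe.

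With estradiol none of the 4 pi-class probes was called, at 0.13 to 0.24 (adjusted p 0.26 to 0.78). The array labelled XY- E replicate 5 was apart from the other estradiol arrays at Gstp1. It read 8.23 with probe ILMN_2793329, where the other estradiol arrays ended at 7.62 and the testosterone arrays began at 8.06. It read 13.90 with probe ILMN_1223230, where the others ended at 13.16, and 9.00 with Mgst3 probe ILMN_2615035, within the testosterone range of that probe. The array labelled XY-Sry T replicate 5 lay within the testosterone range at all 4 pi-class probes.

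**Figure D1:**
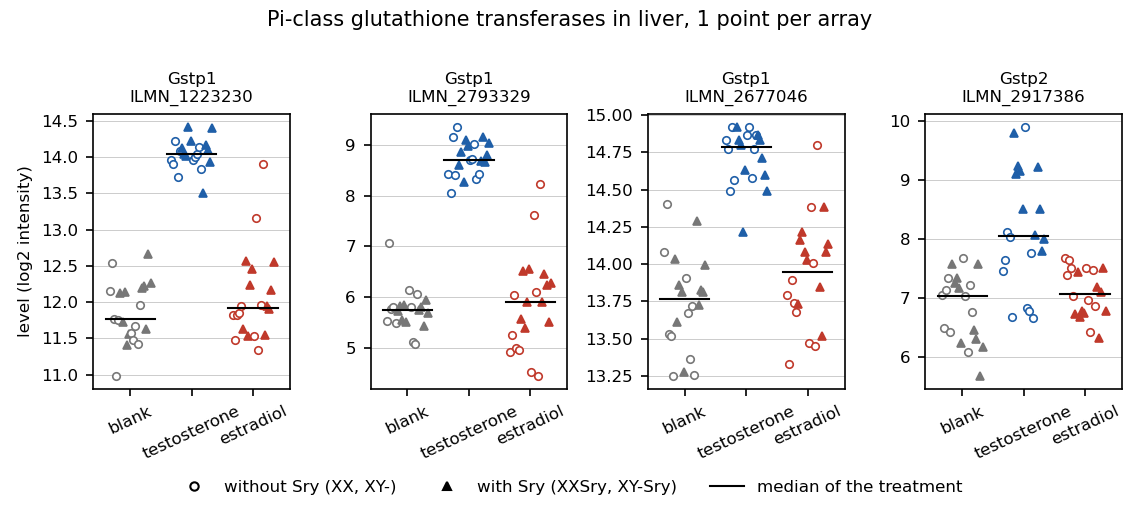
Levels (log2 intensity) of the 3 Gstp1 probes and of Gstp2 in liver, 1 point per array, by capsule; circles lack Sry, triangles carry it, and the black line is the median of the 20 arrays. Testosterone arrays lie above all blank arrays for 2 Gstp1 probes, 1 estradiol array reads 8.23 and 13.90 at those probes, and in Gstp2 the testosterone arrays run from 6.65 to 9.90.

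The promoters of both pi-class genes are shown because the pair responded together to testosterone. They are the 250 bases before the start of each gene, from RefSeq on build GRCm38.p6, written 5′ to 3′ on the strand of the gene, and capitals mark TGAGTCA, the site known for AP-1 factors.
Gstp1, chr19:4037913-4038162, minus strand: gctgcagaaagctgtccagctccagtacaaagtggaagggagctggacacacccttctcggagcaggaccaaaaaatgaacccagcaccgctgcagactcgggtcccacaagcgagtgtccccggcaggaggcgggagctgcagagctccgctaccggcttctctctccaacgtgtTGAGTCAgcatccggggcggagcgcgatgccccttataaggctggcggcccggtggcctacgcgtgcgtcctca
Gstp2, chr19:4042222-4042471, minus strand: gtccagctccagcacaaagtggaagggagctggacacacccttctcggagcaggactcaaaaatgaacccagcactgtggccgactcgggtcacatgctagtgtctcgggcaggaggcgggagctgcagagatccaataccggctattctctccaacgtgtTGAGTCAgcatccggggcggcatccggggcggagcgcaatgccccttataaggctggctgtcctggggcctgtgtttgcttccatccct
Aligned over their full length with gaps allowed, the sequences are 82.8% identical, with 207 of 250 bases shared. The coding parts of this pair are also known to be close, so a probe of one gene may read the other; which transcript each probe reads was not analysed here, for Gsta1 and Gsta2 as well. TGAGTCA lies 74 to 68 bases before the start of Gstp1 and 89 to 83 before that of Gstp2. The motif was added to the search after the sequences had been read, was sought on both strands (as TGACTCA on the other), and also occurs in Gstm5, Mgst2 and Ugt2a2; 4.46% of 32851 RefSeq promoters of that length hold it. Neither promoter held the full palindrome of the androgen response element or that of the estrogen response element, which 0.0304% and 0.0639% of all promoters hold; nor did any other of the 29 member symbols with a promoter in the table. A match or its lack describes the letters of this window only; binding was not tested.

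Among the membrane enzymes, testosterone lowered Mgst3, which is known for leukotriene C4 synthesis and peroxidase activity. With probe ILMN_2615035 the testosterone arrays lay between 8.55 and 9.96 (median 9.19) and the blank arrays between 10.30 and 11.12 (median 10.70). The arms did not overlap, and the difference was -1.46 ± 0.12, or 2.76-fold lower (adjusted p = 1.28e-14). The second probe, ILMN_1238479, gave -1.22 ± 0.16 (adjusted p = 2.90e-08). Mgst1, a glutathione transferase and peroxidase of the endoplasmic reticulum and outer mitochondrial membrane, was called higher with both of its probes, by 0.36 ± 0.12 and 0.24 ± 0.08 (adjusted p = 0.0347 and 0.0292). Both of those calls were fragile. The first (ILMN_2669416) was lost on leaving out any 1 of 12 arrays (adjusted p up to 0.0744): XX B replicate 2, XX T replicate 5, XY- B replicates 1 and 2, XY- T replicates 3 and 5, XXSry B replicates 1 and 2, XXSry T replicate 4, XY-Sry B replicates 1 and 5, and XY-Sry T replicate 5. The second (ILMN_2940195) was lost on leaving out any 1 of 4 (adjusted p up to 0.0553): XX B replicate 1, XX T replicate 5, XY- B replicate 4 and XY- T replicate 4. Without both arrays that went against their labels the first probe gave 0.30 (adjusted p = 0.07). With slide as a block the second gave 0.12 (adjusted p = 0.208). Mgst2 was detected on 2 of 20 testosterone and 1 of 20 blank arrays and differed by 0.08.

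The theta class, whose enzymes are known for halogenated substrates, was lower with testosterone at 2 of its 3 probes. Gstt3 lay between 8.57 and 10.54 (median 9.54) with testosterone and between 10.02 and 11.31 (median 10.61) with blank capsules. Of the 20 testosterone arrays 19 lay below every blank array, and the difference was -1.10 ± 0.16, or 2.15-fold lower (adjusted p = 3.88e-07). Gstt2 differed by -0.64 ± 0.18 (adjusted p = 0.00776) and was lower in 3 of the 4 genotypes. Gstt1 differed by -0.35 (adjusted p = 0.0623).

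Of the mu class, testosterone lowered Gstm2 and no other gene. Its 3 probes fell by 0.54, 0.57 and 0.57 on the log2 scale (adjusted p = 0.000306, 1.88e-06 and 7.78e-06), with 11, 13 and 13 of 20 testosterone arrays below every blank array. The 7 other mu-class probes, of Gstm1, Gstm3, Gstm4, Gstm5 and Gstm6, differed by -0.24 to 0.19. In the zeta class Gstz1, the maleylacetoacetate isomerase of tyrosine breakdown, fell by 0.17 (SE 0.06, adjusted p = 0.0268). That call was lost on leaving out XX B replicate 4, XX T replicate 5, XXSry T replicate 4 or XY-Sry B replicate 3 (adjusted p up to 0.0534), with slide as a block (-0.13, adjusted p = 0.0656), with array weights (-0.11, 0.102) and with median centring (-0.19, 0.163). None of the 5 alpha-class probes was called with testosterone, at -0.23 to 0.28 (smallest adjusted p 0.245).

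The glucuronosyltransferases moved in both directions. The Ugt1 genes share their last exons and differ in the first, so a probe in the shared part would read several of them; the place of each probe was not analysed here. Ugt1a2 lay between 6.67 and 8.34 (median 7.42) with testosterone and between 8.12 and 10.62 (median 8.97) with blank capsules. Of the testosterone arrays 19 of 20 lay below every blank array, and the difference was -1.60 ± 0.20, or 3.04-fold lower (adjusted p = 1.04e-08). Ugt1a10 differed by -0.54 ± 0.07 (adjusted p = 1.55e-07), with 18 of 20 testosterone arrays below every blank array. Ugt1a6a, an enzyme of phenol conjugation, had probes that disagreed. ILMN_2418855 and ILMN_1212835 were higher with testosterone, by 0.62 ± 0.14 and 0.62 ± 0.13 (adjusted p = 0.000966 and 0.000373). ILMN_2795317 was lower, by -0.83 ± 0.10 (adjusted p = 7.17e-09), with 18 of 20 arrays below every blank array. All 3 kept their direction in each of the 4 genotypes and on each of the 3 shared slides, so no single direction is given for that gene.

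Ugt2b5, of a subfamily known for steroid glucuronidation, lay between 5.97 and 7.50 (median 6.85) with testosterone and between 4.92 and 6.86 (median 6.27) with blank capsules. The arms overlapped, with 9 of 20 testosterone arrays above every blank array. The difference was 0.63 ± 0.13, or 1.54-fold (adjusted p = 0.000372). Ugt2b36 and Ugt2a3 differed by 0.14 and 0.34 and were not called (adjusted p = 0.2 and 0.151), nor was Ugt3a1 at -0.18 (adjusted p = 0.196). Other probes of the Ugt2b subfamily carry older symbols on the array, outside the rule, and were named through their RefSeq entries after their values were seen. Ugt2b1 (listed as 1300012D20Rik) was higher with testosterone by 1.33 ± 0.17 (adjusted p = 1.29e-08), and Ugt2b35 (C730031G17) by 0.69 ± 0.14 (adjusted p = 0.000133).

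**Figure D2:**
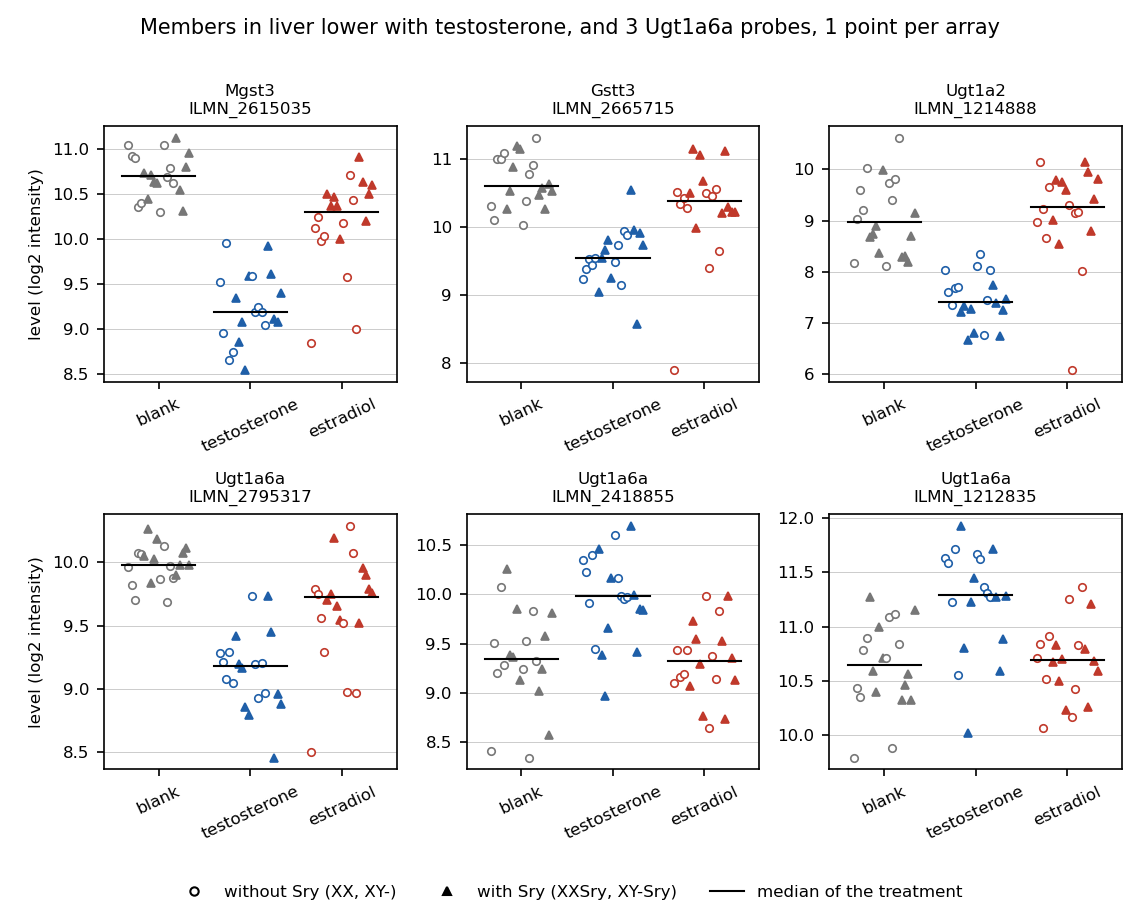
Levels (log2 intensity) in liver of Mgst3, Gstt3, Ugt1a2 and the 3 Ugt1a6a probes, 1 point per array, by capsule; circles lack Sry, triangles carry it, and the black line is the median of the 20 arrays. Mgst3 does not overlap between testosterone and blank, 1 Ugt1a6a probe is lower with testosterone (-0.83) and the other 2 are higher (0.62 each).

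Estradiol in liver lowered members and raised none, mainly in the alpha class. Of the 39 members 7 were called (17.9%), all lower, against 6.82% of all probes tested; lower calls made up 3.27% of all probes and higher calls 3.55%. With median centring in place of quantile normalisation 12 members were called, all lower, against 12.3% of all probes, whose median was then -0.18. Gsta1, Gsta2, Gsta3 and Gsta4, which detoxify lipid peroxidation products and, in the case of Gsta3, aflatoxin epoxide, were called with 4 of the 5 alpha-class probes. The median difference was -0.64 over the 5 alpha-class probes, -0.09 over the members and -0.02 over all probes. The 32 members not called differed by -0.40 to 0.24. Without XX E replicate 1 there were 6 calls, against 5.57% of all probes. Without both arrays that went against their labels there were 8, of which 1, a probe of Gstm2, was higher. That count is not to be read against the shares above.

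Gsta1 lay between 4.39 and 6.38 (median 5.18) with estradiol and between 4.81 and 7.77 (median 6.58) with blank capsules. Many estradiol arrays were at the background: the probe was detected on 6 of 20 of them and on 18 of 20 blank arrays. The difference was -1.26 ± 0.22, or 2.40-fold lower (adjusted p = 6.28e-05). Gsta2 lay between 5.72 and 8.47 (median 7.53) against 7.62 to 8.93 (median 8.41), and 12 of 20 estradiol arrays lay below every blank array. It differed by -0.84 ± 0.14, or 1.79-fold lower (adjusted p = 4.14e-05). Gsta4, the enzyme known for 4-hydroxynonenal, differed by -0.64 ± 0.13 (adjusted p = 0.000894). The 2 probes of Gsta3 disagreed in call: ILMN_3138685 differed by -0.52 ± 0.14 (adjusted p = 0.015) and ILMN_1241437 by -0.02 (adjusted p = 0.928).

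The lowest estradiol value was XX E replicate 1 for each of the 5 alpha-class probes. Without that array Gsta1, Gsta2, Gsta3 (ILMN_3138685) and Gsta4 differed by -1.21, -0.74, -0.40 and -0.53, and the 4 calls were kept (adjusted p = 0.000137, 2.88e-05, 0.0209 and 0.000607). On the 2 slides that held both capsules the within-slide differences of Gsta1 were -1.47 and -1.22.

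The promoters of Gsta1 and Gsta2 are shown because estradiol lowered both genes. They are from the same RefSeq table and build, and capitals mark TTCNNNGAA, the core of a STAT site.
Gsta1, chr9:78230419-78230668, plus strand: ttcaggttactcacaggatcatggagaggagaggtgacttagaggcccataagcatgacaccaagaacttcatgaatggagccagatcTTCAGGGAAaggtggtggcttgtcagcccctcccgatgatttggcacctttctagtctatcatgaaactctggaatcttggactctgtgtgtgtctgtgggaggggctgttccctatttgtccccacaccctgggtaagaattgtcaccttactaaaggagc
Gsta2, chr9:78347146-78347395, minus strand: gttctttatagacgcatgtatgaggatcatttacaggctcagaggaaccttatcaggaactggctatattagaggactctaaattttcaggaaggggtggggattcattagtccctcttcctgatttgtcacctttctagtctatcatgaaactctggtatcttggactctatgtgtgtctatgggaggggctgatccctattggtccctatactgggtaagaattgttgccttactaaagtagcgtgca
They are 73.6% identical by the same count, with 184 of 250 bases shared. The STAT core lies 162 to 154 bases before the start of Gsta1 and is not in the Gsta2 window. Among the 29 member symbols with a promoter it also occurs in Gstm6 and Ugt1a6a, and 7.02% of all promoters of that length hold it. The antioxidant response element core TGACNNNGC occurs in Gsta3, Gstm5 and Mgst1, and 10.2% of all promoters hold it.

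**Figure D3:**
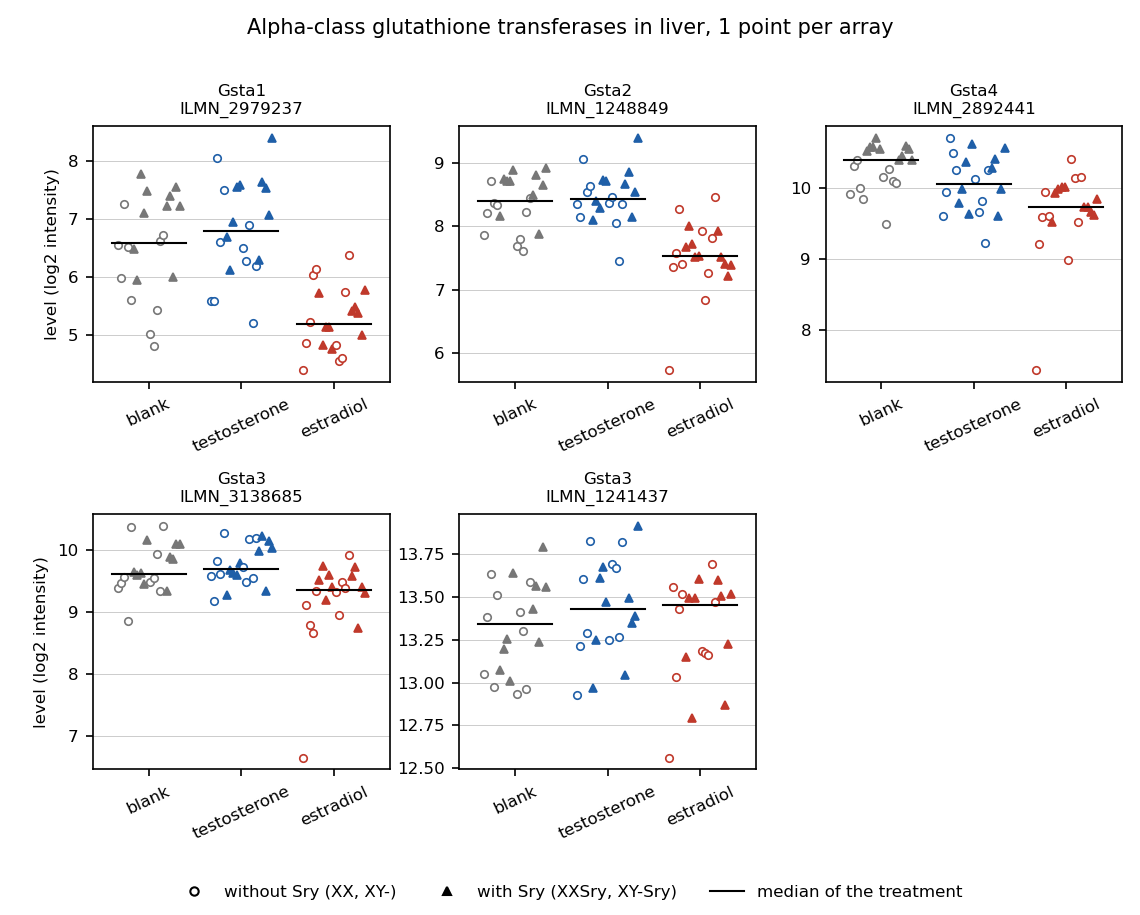
Levels (log2 intensity) of the 5 alpha-class probes in liver, 1 point per array, by capsule; circles lack Sry, triangles carry it, and the black line is the median of the 20 arrays. Estradiol medians lie below blank medians for Gsta1 (5.18 against 6.58) and Gsta2 (7.53 against 8.41), and XX E replicate 1 is the lowest estradiol point in each panel.

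Outside the alpha class, estradiol lowered Gstt2, Mgst3 and 1 probe of Ugt1a6a. Gstt2 lay between 6.58 and 9.26 (median 8.37) with estradiol and between 7.61 and 10.36 (median 9.22) with blank capsules; the arms overlapped widely, with 2 of 20 estradiol arrays below every blank array. Its difference was -0.78 ± 0.18, or 1.71-fold lower (adjusted p = 0.00372). Mgst3 differed by -0.51 ± 0.12 (adjusted p = 0.00418) with probe ILMN_2615035 and by -0.35 (adjusted p = 0.188) with the other probe; with slide as a block the first gave -0.37 (adjusted p = 0.114). Ugt1a6a probe ILMN_2795317 differed by -0.35 ± 0.10 (adjusted p = 0.0256), and the call was lost without XX E replicate 1 (-0.30, adjusted p = 0.0531) and with array weights (-0.26, adjusted p = 0.0567). Its other probes differed by -0.03 and 0.04. Gstm2, lower with testosterone, differed by 0.14, 0.20 and 0.18 with estradiol and was not called (adjusted p 0.18 to 0.516).

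Markers of other liver cells moved with the capsules. Hepatocyte markers differed by a median of 0.03 with testosterone and 0.02 with estradiol; 1 of 7 was called higher with testosterone and 0 of 7 with estradiol. All 4 macrophage markers were higher with estradiol (median 0.68) and 2 of 4 were lower with testosterone (median -0.36). The summed macrophage level ran from 10.37 to 12.93 with estradiol, 9.69 to 12.74 with blank and 9.25 to 11.28 with testosterone on the log2 scale. The Kupffer cell marker Cd5l was not detected on any array. The part of these cells in the members' differences was not tested.

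**Figure D4:**
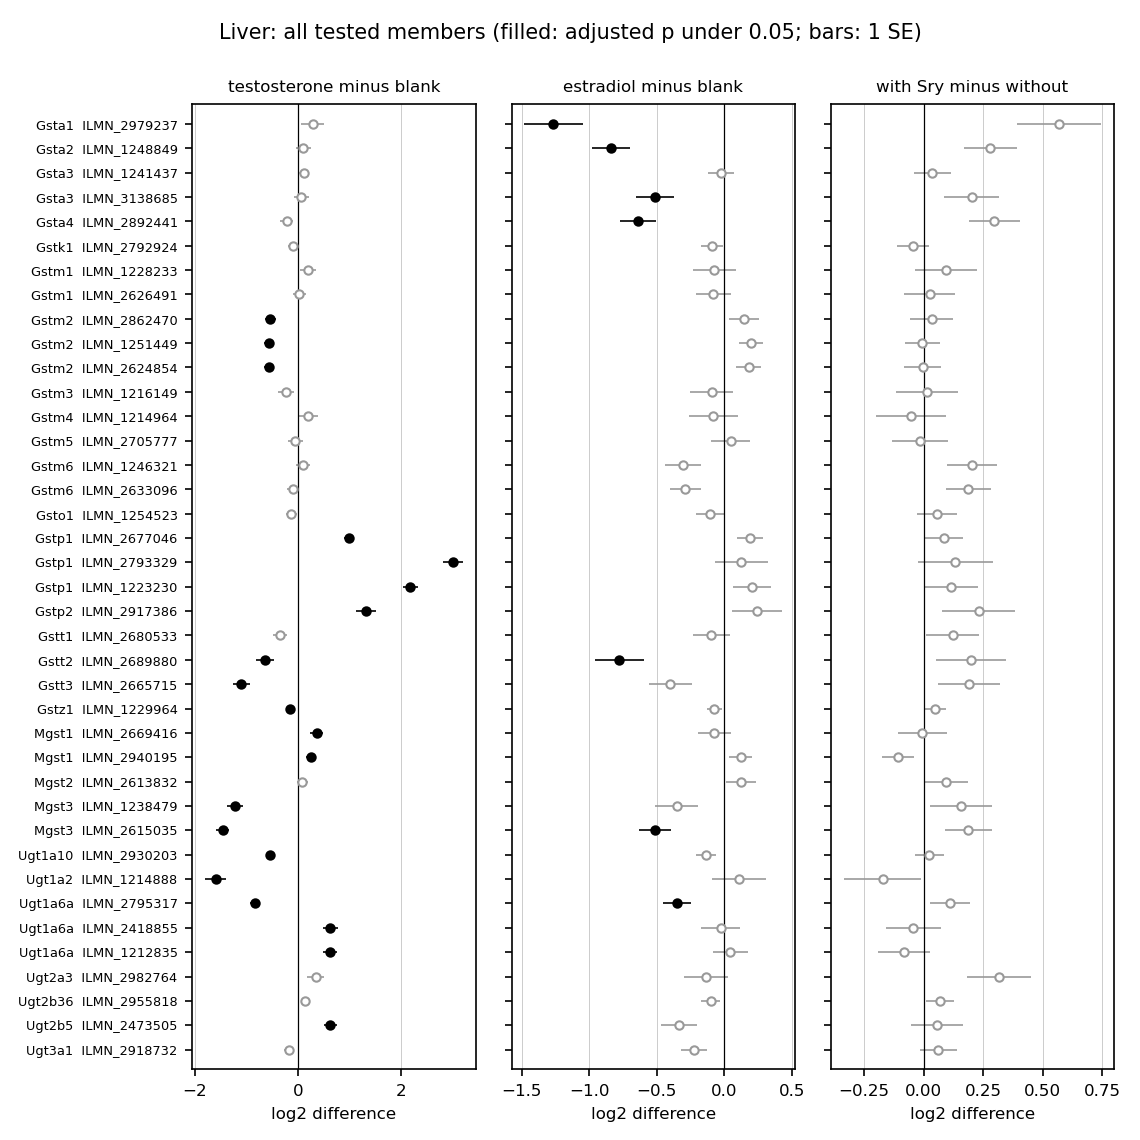
Log2 differences of the 39 members tested in liver, with 1 SE, for testosterone minus blank, estradiol minus blank and with Sry minus without; filled points have an adjusted p under 0.05. With testosterone 9 points are filled on the higher and 11 on the lower side, with estradiol 7 on the lower side, and for the gonad comparison none.

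For the type of gonad in liver no member passed the test, and the smaller differences that came nearest to it were higher with Sry. None of the 39 members was called for with Sry minus without by limma, against 3.4% of all probes (0.548% higher and 2.85% lower), a background at which 39 probes would hold few calls. With slide as a block 2 members were called, Gsta1 and Ugt2a3, both higher with Sry, a count not to be read against that share. Without the block 4 of the 39 members had an unadjusted p under 0.05, all higher with Sry. Of all 11317 probes 1291 did, 544 of them higher and 747 lower. The members' differences ran from -0.17 to 0.57, with a median of 0.07 against 0.01 over all probes. The highest was Gsta1, at 0.57 ± 0.18 (adjusted p = 0.0589, 95% interval 0.22 to 0.92). Its group means in blank mice were 6.38 ± 0.63 (SD, n = 5) in XX, 5.72 ± 0.90 in XY-, 6.95 ± 0.74 in XXSry and 7.07 ± 0.62 in XY-Sry. Within treatments it differed by 0.97 in blank, 0.75 in testosterone and -0.01 in estradiol mice, and none was called (adjusted p = 0.0993, 0.92 and 0.996). Gsta1 was called when the slide was a block, when both arrays that went against their labels were left out, and on leaving out any 1 of 13 arrays. These were XX B replicate 3, XX T replicates 3 and 5, XX E replicates 4 and 5, XY- B replicates 4 and 5, XY- T replicate 3, XY- E replicate 5, XXSry B replicate 2, XXSry T replicate 2, XY-Sry B replicate 3 and XY-Sry T replicate 1. Beside this comparison, all 4 macrophage markers and all 4 Kupffer cell markers tested were lower with Sry (medians -0.66 and -0.58), and 0 of 7 hepatocyte markers were called (median 0.05). Their part in the members' values was not tested.

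Within one treatment the gonad difference was called for 1 member, Gstp2 with testosterone. In that comparison 0.212% of all probes were called. Gstp2 lay between 7.80 and 9.80 (median 8.81) in the 10 testosterone arrays with Sry and between 6.65 and 9.90 (median 7.56) in the 10 without. The arms overlapped: the XX arrays reached 8.12, and 1 XY- array stood at 9.90. The difference was 1.16 ± 0.26, or 2.23-fold (adjusted p = 0.0352). Group means were 9.16 ± 0.46 (SD, n = 5) in XXSry, 8.32 ± 0.57 in XY-Sry, 7.59 ± 0.58 in XX and 7.58 ± 1.37 in XY- mice. In blank mice the means were 7.11 ± 0.51, 6.44 ± 0.70, 6.88 ± 0.41 and 6.95 ± 0.59 in the same order, and in estradiol mice 6.88 ± 0.32, 6.98 ± 0.45, 7.45 ± 0.26 and 7.04 ± 0.45. The gonad difference was -0.14 in blank and -0.32 in estradiol mice (adjusted p = 0.965 and 0.719). The test of whether testosterone acted differently by gonad gave 1.30 ± 0.37 (adjusted p = 0.296, 95% interval 0.55 to 2.05) and was not called. It was called with array weights and on leaving out XY- T replicate 1, the array at 9.90.

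The Gstp2 call within testosterone was fragile. It was lost without any one of 11 arrays: XX T replicates 1, 2 and 5, XY- T replicates 2, 3 and 5, XXSry T replicates 1, 2 and 4, and XY-Sry T replicates 2 and 3. The difference stayed between 1.04 and 1.45 (adjusted p up to 0.107). With no filter on dim probes the adjusted p was 0.0789. The 3 Gstp1 probes differed by 0.08 to 0.13 between gonad types and were not called (adjusted p 0.816 to 0.867).

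In blank mice limma called 0 of 39 members for gonad, against 1.75% of all probes. An unadjusted p under 0.05 was found for 5 members and for 1114 of the 11317 probes tested. With slide as a block limma called 1 member, Gsta1, higher with Sry, a count not to be read against that share. In estradiol mice limma called 0 members, against 2.44% of all probes. An unadjusted p under 0.05 was found there for 11 members, all higher with Sry, and for 1353 of the 11317 probes. The median difference there was 0.19 over the members and 0.02 over all probes, and with slide as a block 1 member was called, Ugt2a3, the highest of the 39 at 0.67 ± 0.23 (adjusted p = 0.137 without the block). Without XX E replicate 1 the count at an unadjusted p under 0.05 in estradiol mice was 6 in place of 11. No member was called by limma for testosterone by gonad (0.124% of all probes), estradiol by gonad (0.0795%) or sex chromosome complement (0.186%). At an unadjusted p under 0.05 these contrasts held 3, 4 and 1 members, beside 659, 622 and 472 of all 11317 probes. The highest estradiol by gonad value was Ugt1a2 at 1.29 ± 0.40 (adjusted p = 0.304).

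The genes that supply and remove the substrates of these enzymes in liver were mixed, as counts of called genes. Of all probes 19.1% were called with testosterone, 6.82% with estradiol and 3.4% for gonad. Of the glutathione supply list 8 of 13 genes were tested. With testosterone 3 were higher: Gss (glutathione synthetase, 0.36 and 0.40 with its 2 probes), Gclm (the modifier subunit of glutamate-cysteine ligase, 0.28) and Chac1 (a glutathione-degrading enzyme, 0.75). G6pdx, a source of NADPH, and Ggct were lower, by -0.40 and -0.32. With estradiol Chac1 (1.18) and Ggct (0.41) were higher and Gclc, the catalytic subunit of that ligase, was lower (-0.40). Of the UDP-glucuronic acid list 5 of 8 genes were tested. Ugp2, which makes UDP-glucose, was lower with both capsules, at -0.52 with testosterone and -0.64 with estradiol. Gusb, which splits glucuronides, was higher with testosterone (0.41).

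Of the exporters of conjugates 5 of 8 genes were tested. With testosterone Abcg2 (0.55) and Abcc2 (0.49), a pump of the bile canaliculus, were higher, and Abcc3 (-0.39) and Abcc5 (-0.52) were lower; with estradiol 1 probe of Abcc2 was lower (-0.27). Of 12 regulators tested, testosterone lowered Nr1i3, the receptor CAR (-0.67), and Ppara (-0.43) and raised Cebpb (0.48). By probe this was 1 higher and 2 lower of 15, a share near the 19.1% of all probes. Estradiol lowered Ppara (-0.63) and Rxra (-0.24) and raised Cebpb (0.37), by probe also 1 higher and 2 lower of 15, against 6.82%. Of 5 enzymes known as Nrf2 targets, testosterone raised Srxn1 (0.59 and 0.47 with 2 probes) and lowered Nqo1 (-0.62), and estradiol changed none by the test. Of 6 glutathione peroxidases tested, Gpx3 was higher with estradiol (0.86), Gpx8 lower with testosterone (-0.39), and Gpx7 lower with Sry (-0.42).

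In inguinal adipose tissue testosterone changed few members. Of 34 members 3 were called (8.82%), against 4.75% of all probes (2.16% higher and 2.59% lower): the alpha-class Gsta3 was higher, and Mgst2 and Gsto2 were lower. With slide as a block 1 was called, Gsta3. With muscle, lymph node and hepatocyte marker scores as covariates 5 were called, Gsta4 and a probe of Ugt1a6a being added. Neither count is to be read against the shares above. The 31 members not called in the fit on all arrays differed by -0.35 to 0.80. Among them Ugt3a1 was detected on 4 of 55 arrays and Ugt2b36 on 10 of 55. Both had their highest values on XY-Sry T replicate 1, XXSry B replicate 1 and XX T replicate 4. Those were the 3 arrays with the highest hepatocyte markers. No pi-class probe was called; Gstp1 differed by 0.23 and 0.21 with its 2 tested probes and Gstp2 by 0.49 (adjusted p = 0.27, 0.167 and 0.445). The differences between the tissues were not tested, since each tissue was normalised and fitted on its own.

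Gsta3 with probe ILMN_1241437 lay between 11.00 and 13.96 (median 12.14) on the 19 testosterone arrays and between 10.34 and 11.88 (median 11.19) on the 17 blank arrays. Of the testosterone arrays 11 lay above every blank array. The difference was 0.96 ± 0.20, or 1.95-fold (adjusted p = 0.00202); the second probe gave 0.80 ± 0.31 (adjusted p = 0.132). On the 2 slides that held both capsules the within-slide difference of the first probe was -0.16 and 1.51, so the direction did not hold on 1 of them. The highest Gsta3 value was in XY-Sry T replicate 1, whose hepatocyte markers stood apart. Without it the difference was 0.84 ± 0.18 (adjusted p = 0.00183), and without the 3 arrays with the highest hepatocyte markers 0.81 ± 0.18 (adjusted p = 0.00452). Hepatocyte markers as a group differed by a median of 0.56 with testosterone, with 0 of 6 called; their summed level ran from 8.16 to 16.43 with testosterone and from 7.63 to 14.84 with blank.

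Mgst2, known for leukotriene C4 synthesis, lay between 8.42 and 9.71 (median 9.11) with testosterone and between 9.03 and 10.82 (median 9.99) with blank capsules. Of the 19 testosterone arrays 9 lay below every blank array, and the difference was -0.74 ± 0.17, or 1.67-fold lower (adjusted p = 0.0067). Gsto2, of the omega class known for dehydroascorbate reduction, lay between 6.32 and 7.72 (median 6.95) against 6.39 to 8.31 (median 7.45). The arms overlapped, with 1 of 19 testosterone arrays below every blank array and some blank arrays above every testosterone array. It differed by -0.52 ± 0.14 with probe ILMN_2938904 (adjusted p = 0.0156) and by -0.23 with the other probe (adjusted p = 0.388). With slide as a block both calls were lost: Mgst2 gave -0.57 (adjusted p = 0.0631) and Gsto2 -0.51 (adjusted p = 0.0829). With median centring Gsto2 gave -0.54 (adjusted p = 0.0514).

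Estradiol in adipose tissue lowered 6 members, among them the alpha-class Gsta4 and the theta-class Gstt1 and Gstt2, and raised 2, Gsto1 and Mgst1. The 8 called of 34 members (23.5%) stand against 20.5% of all probes, a share near the background. Higher calls were 2 of 34, against 10.4% of all probes, and lower calls 6 of 34, against 10.1%. The median difference was -0.19 over the members and -0.02 over all probes, and the 26 members not called differed by -0.43 to 0.22. The count was 10 without XY-Sry T replicate 1 (21.3% of all probes), 10 without XY- B replicate 1 (20.7%) and 7 without XX E replicate 1 (19.8%). It was 4, all lower, with median centring (13.2% of all probes), and 14, of which 11 were lower, both with array weights (30.2%) and with muscle, lymph node and hepatocyte marker scores as covariates (24.4%).

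Gsta4 lay between 7.88 and 9.53 (median 8.82) on the 19 estradiol arrays and between 8.42 and 10.45 (median 9.67) on the 17 blank arrays. The arms overlapped, with 4 estradiol arrays below every blank array. The difference was -0.79 ± 0.16, or 1.73-fold lower (adjusted p = 0.000299). Gstt1, known for conjugating dichloromethane, lay between 8.56 and 10.63 (median 9.54) against 9.30 to 11.05 (median 10.33) and differed by -0.68 ± 0.17, or 1.60-fold lower (adjusted p = 0.00196). With median centring it gave -0.68 and an adjusted p of 0.0536. Gstm6 with probe ILMN_2633096 lay between 4.68 and 6.18 (median 5.63) against 5.56 to 7.19 (median 6.23), close to the background. It differed by -0.74 ± 0.23 (adjusted p = 0.0168), was detected on 4 of 19 estradiol and 13 of 17 blank arrays, and was not called without background correction (-0.26, adjusted p = 0.118); its other probe gave -0.43 (adjusted p = 0.115).

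Gstz1 differed by -0.38 ± 0.08 (adjusted p = 0.000251) and was lower in all 4 genotypes. Gstk1, the kappa-class enzyme of mitochondria and peroxisomes, differed by -0.39 ± 0.14 (adjusted p = 0.0361) and was lower in 3 of 4 genotypes; with slide as a block it was no longer called (-0.31, adjusted p = 0.143), nor was it on leaving out any 1 of 13 arrays (adjusted p up to 0.0989). These were XX B replicate 1, XX E replicate 3, XY- B replicate 2, XY- E replicates 1 and 4, XXSry B replicates 1 and 3, XXSry E replicates 1 and 4, XY-Sry B replicate 2 and XY-Sry E replicates 1, 4 and 5. Gstt2 differed by -0.52 ± 0.19 (adjusted p = 0.0469), a call lost on leaving out any 1 of 26 of the 55 arrays (adjusted p up to 0.104). Of these 14 were estradiol, 9 blank and 3 testosterone arrays, from all 4 genotypes. One was XX E replicate 1, the array with conflicting labels; without it the adjusted p was 0.0524, and with it taken as testosterone 0.0564.

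Gsto1, an omega-class enzyme known for reducing dehydroascorbate and for modifying cysteines by thiol transfer, lay between 11.32 and 12.29 (median 11.81) with estradiol and between 10.72 and 11.61 (median 11.42) with blank capsules. Of the 19 estradiol arrays 14 lay above every blank array, and the difference was 0.50 ± 0.09, or 1.41-fold (adjusted p = 7.34e-05). With median centring it was 0.45 (adjusted p = 0.0586). Mgst1 probe ILMN_2669416 lay between 11.69 and 13.03 (median 12.28) against 10.86 to 12.47 (median 12.00), with 7 of 19 estradiol arrays above every blank array. It differed by 0.43 ± 0.13 (adjusted p = 0.00911), and the other probe by 0.15 (adjusted p = 0.242); with slide as a block the first gave 0.24 (adjusted p = 0.173). Beside these results, all 4 macrophage markers were higher with estradiol in adipose tissue (median 1.20) and 4 of 7 adipocyte markers were lower (median -0.40). The part of macrophages and adipocytes in the members' differences was not tested. Skeletal muscle markers differed by a median of -1.07, with 0 of 8 called. Their summed level ran from 9.93 to 17.17 with estradiol and from 12.45 to 17.22 with blank.

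**Figure D5:**
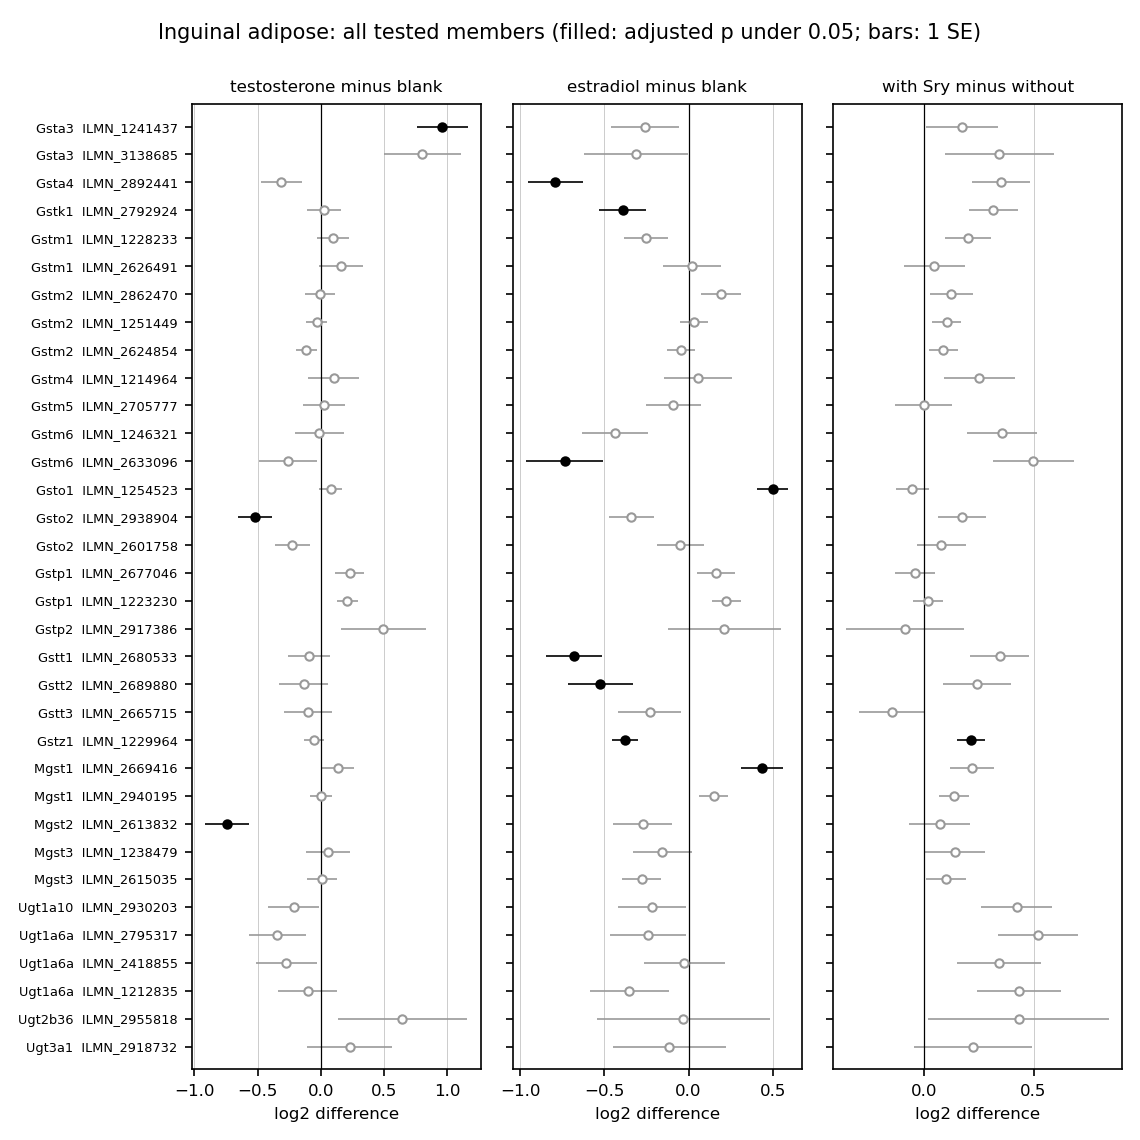
Log2 differences of the 34 members tested in inguinal adipose tissue, with 1 SE, for testosterone minus blank, estradiol minus blank and with Sry minus without; filled points have an adjusted p under 0.05. With testosterone 1 point is filled on the higher and 2 on the lower side, with estradiol 2 and 6, and for the gonad comparison Gstz1 alone (0.21).

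For the type of gonad in adipose tissue 1 of 34 members was called (2.94%), against 7.34% of all probes (2.63% higher and 4.71% lower). When slide was a block 5 were called, all higher with Sry (9.89% of all probes): Gstz1, Gstk1, Gstt1 and 1 probe each of Mgst1 and Ugt1a6a. With array weights (9.92%) and with muscle, lymph node and hepatocyte marker scores as covariates (10.7%) 3 were called, Gstz1, Gsta4 and Gstk1, and with median centring 2, Gstz1 and Gstk1. Gstz1 lay between 13.53 and 14.51 (median 13.99) on the 28 arrays with Sry and between 13.02 and 14.34 (median 13.76) on the 27 without. The arms overlapped, and the difference was 0.21 ± 0.06, or 1.16-fold (adjusted p = 0.0229). It was higher with Sry in 6 of 6 pairings of treatment and sex chromosomes and on 8 of 8 slides. A further 9 members had an unadjusted p under 0.05, all higher with Sry, which makes 10 of 34. Of all 14636 probes 2593 did, 1462 of them higher and 1131 lower. The members not called differed by -0.15 to 0.52. Ugt1a6a (ILMN_2795317, 0.52) and Gstk1 (0.32) had the smallest adjusted p of these, 0.0777 each. Mammary epithelium markers moved with the same comparison: 6 of 7 tested were lower with Sry (median -3.20), and their summed level ran from 8.12 to 11.68 with Sry and from 11.19 to 14.02 without. Of the adipocyte markers 3 of 7 were higher with Sry (median 0.31), with a summed level of 15.01 to 15.85 against 14.34 to 15.74. Of the bile duct markers, a list that shares Epcam with the mammary one, 3 of 4 tested were lower (median -2.09), at 7.07 to 11.31 against 9.03 to 12.37. The part of the adipocyte and bile duct markers in the members' values was not tested. With the mammary marker score as a covariate Gstz1 differed by 0.41 and was not called (adjusted p = 0.157). The arms hardly overlap in mammary marker level, so that fit can hardly separate it from gonad type, and the lost call decides nothing. Without the 3 arrays with the highest hepatocyte markers Gstz1 gave 0.18 (adjusted p = 0.0857), and 1 probe of Gstm6 was called in its place. On leaving out XXSry B replicate 5, 4 members were called, Gsta4, Gstk1 and a probe of Ugt1a6a being added; on leaving out any of 8 other arrays, 2 were called: XX B replicate 1, XX T replicate 2, XY- B replicates 2 and 3, XY- E replicate 3 and XY-Sry T replicates 2, 4 and 5.

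No adipose member was called by limma for gonad in blank (1.8% of all probes), testosterone (3.42%) or estradiol mice (4.4%). The same held for testosterone by gonad (0.0137%), estradiol by gonad (0.813%) and sex chromosome complement (0.137%). Counts at an unadjusted p under 0.05 are given next, for the 34 members and then for all 14636 probes. They were 0 and 992 for gonad in blank, 8 and 1809 in testosterone, and 6 and 1866 in estradiol mice. For testosterone by gonad, estradiol by gonad and sex chromosomes they were 2 and 623, 4 and 861, and 3 and 1350. Other settings gave calls for some of these contrasts. In estradiol mice Gsto1 was called lower with Sry when slide was a block. With array weights 4 members were called there, Gsto1 lower and 1 probe of Gstm2, Gstt1 and Gstz1 higher with Sry, and 3 probes were called for sex chromosomes, 2 of the 3 of Gstm2 and that of Gstz1. With the mammary marker score as a covariate Ugt1a10 was called in testosterone and Gstt1 in estradiol mice, both higher with Sry. As said above, that fit can hardly separate the score from gonad type.

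In adipose tissue 20.5% of all probes were called with estradiol, 4.75% with testosterone and 7.34% for gonad. Of the other genes of the pathway there, glutathione peroxidases were called most often with estradiol. Of 7 tested, Gpx3, the secreted form (1.18), Gpx5 (0.70), Gpx7 (0.48) and Gpx1 (0.27) were higher and Gpx8 was lower with its 3 probes (-0.96 to -0.77). With testosterone Gpx3 was higher (0.45) and Gpx8 lower (-1.21 to -1.14). Of 10 glutathione supply genes tested, estradiol raised G6pdx (1.01), Dpep1 (0.74) and Gss (0.52) and lowered Oplah (-0.50); testosterone raised Dpep1 (0.99). Gusb was higher with estradiol (0.72). Of 5 Nrf2 target enzymes, Srxn1 was higher with testosterone (0.59 and 0.70 with 2 probes) and with estradiol (0.67 and 0.60 with 2 probes), and Hmox1 with estradiol (0.97). Of 9 regulators tested, Bach1, a repressor of Nrf2 targets, was higher with testosterone (0.68) and with Sry (0.50), and Rxra with Sry (0.46). With Sry, Anpep and Abcc3 were lower (-0.70 and -0.57), beside the mammary markers given above.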

How the data were processed

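Total RNA was measured on 1-colour Illumina BeadChips. Per the file headers, the deposited tables give a mean bead intensity (linear scale) and a detection p-value per probe and array; the submitters' processing notes name lumi, and background, scaling and scanner steps are not given in the sources used here. The 60 liver and 55 adipose columns of bead standard errors were not used. Groups came from the labels. Here intensities were background-corrected by limma 3.58.1 (R 4.3.3, neqc, offset 16, negative controls inferred from detection p-values) and quantile-normalised per tissue; probes were filtered at detection p under 0.01. A model of the 12 group means gave 9 contrasts per tissue, with Benjamini-Hochberg adjustment over all probes tested; the code was tested on simulated data. Precision is limited by the number of arrays. Alternatives changed the normalisation, background, filter, slide, array weights, tissue-marker covariates and the arrays included.

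The members and lists were chosen with earlier results of these data known. Every called member for testosterone, estradiol and gonad is named; levels by arm and tests are given for the 3 largest called increases and decreases, 1 probe per gene (that with the highest mean), and every called member of the other contrasts is named. Values of further probes and members were added after they were seen. Leaving out the arrays that went against their labels or stood apart was chosen after seeing the data. Member symbols matched RefSeq for 31 of 31, and 29 have a promoter in the table.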

Additional observations from a re-analysis of the deposited data

Results flagged for a closer look

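Among the 12 liver groups whose Gstp2 values are given, 1 array lay far from the others of its group. In XXSry mice with estradiol, replicate 2 stood at 7.44, while the other 4 arrays lay between 6.68 and 6.78. The gap was 0.875 of the group's range, above the 95% limit of 0.71 for groups of 5. About 1 in 20 groups exceeds that limit by chance.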

How the results depend on the processing

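Among members called in the fit on all arrays no direction reversed under the alternatives run. Members not called there were not checked for direction. With median centring 12 members were called for estradiol in liver; there all probes shifted by a median of -0.18. In adipose tissue that setting gave 4 calls for estradiol and 2 for gonad. With slide as a block the calls were 2 for gonad in liver (Gsta1, Ugt2a3), 1 for gonad in blank liver (Gsta1), 1 for gonad in estradiol liver (Ugt2a3), 1 for testosterone in adipose tissue, 5 for gonad there and 1 for gonad in estradiol adipose tissue (Gsto1). With array weights 1 member (Gstp2) was called for testosterone by gonad in liver; in adipose tissue 14 were for estradiol, 3 for gonad, 4 for gonad in estradiol mice and 3 for sex chromosomes. With no filter the gonad call in testosterone liver was lost, leaving 0. With both liver arrays that went against their labels left out, 1 member (Gsta1) was called for gonad. With muscle, lymph node and hepatocyte scores as covariates adipose calls were 5 for testosterone, 14 for estradiol and 3 for gonad. With the mammary score, which the fit can hardly separate from gonad type, adipose calls were 0 for gonad. That setting gave 1 for gonad in testosterone (Ugt1a10) and 1 in estradiol mice (Gstt1).

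Leaving out 1 array at a time gave 17 to 21 liver calls for testosterone, 6 to 8 for estradiol, and 0 to 1 for gonad, gonad within each treatment and testosterone by gonad. In adipose tissue it gave 3 to 4 for testosterone, 6 to 10 for estradiol and 1 to 4 for gonad. No paired analysis was possible because the labels carry no replicate numbers or other marks that tie arrays of different groups to each other; slide, which holds several groups, was fitted as a block as given above. Dim probes (Gsta1 and Gstp1 probe ILMN_2793329 in liver, Gstm6 in adipose tissue) lie near the background on some arrays, which limits their fold changes.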
